A study of Mus musculus with 16 samples.

Results

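The E2F factors and pocket proteins measured here are 10 genes, the transcription factors E2f1, E2f2, E2f3, E2f4, E2f6, E2f7 and E2f8 and the pocket protein genes Rb1, Rbl1 and Rbl2, out of 30010 gene names on the array. They were chosen by gene symbol, as every non-control probe that the array annotation assigns to a listed gene. The 10 genes have 18 probes, of which 15 exceeded background clearly on 4 or more of the 16 arrays, and each gene kept at least 1 such probe. The tumours were B16-BL6 melanomas, grown from an invasive mouse melanoma line in male C57BL/6J mice of 8 weeks, with 4 tumours in each of 4 groups. Control tumours had no treatment. The ALA group received 5-aminolevulinic acid, the haem precursor from which cells make protoporphyrin, at 50 mg per kg and not X-ray. The X-ray group was irradiated without ALA, and the ALA plus X-ray group was irradiated after ALA; irradiation was fractionated and ALA was given locally before the fractions, at a radiation dose not given in the sources used here. All groups carry the same tumour line in the same host strain, and each tumour also holds host cells.

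E2F factors bind promoters of genes for DNA synthesis and cell division, most of them as dimers with a DP partner. E2f1, E2f2 and E2f3 are known mainly as activators, E2f4 and E2f6 as repressors, and the atypical members E2f7 and E2f8 repress E2F promoters without a DP partner and are themselves E2F target genes. The pocket proteins, encoded by Rb1 (the retinoblastoma protein), Rbl1 (p107) and Rbl2 (p130), hold E2F factors inactive until cyclin-dependent kinases phosphorylate them. In melanoma the kinase side of this pathway is a frequent site of mutation.

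RNA of each tumour was hybridised to a 1-colour Agilent array, and a level below is the log2 of a probe's processed signal minus the log2 of the 75th percentile of its array, so that 0 is the 75th percentile. That percentile was 213 to 521 and 44.3% to 53.6% of the spots exceeded background clearly, and the number of arrays limits the precision. A gene was called changed at an adjusted p under 0.05 from limma, adjusted by the Benjamini-Hochberg method over all 15399 genes tested. The fit used 1 estimate of a gene's spread for all 4 groups, although the SD differed between groups. Counts from fits of only the arrays compared are given in the section on processing. The 16 arrays lay on 4 slides, with 1 array of each group on each slide; slide and replicate number coincided, and each group kept 1 position on every slide, so position and group cannot be told apart. The labels do not say that each tumour came from a separate animal, so p-values measure the spread between these preparations. Arrays of the ALA plus X-ray group were the least alike: the median SD of a gene within the group was 0.334, against 0.194 in control, 0.215 in ALA and 0.245 in X-ray. All 9 melanoma markers were above background on at least 1 array of each group. Their summed level was 924 to 1300 times the 75th percentile over all arrays. In ALA plus X-ray against control 1 of the 9 fell (Mitf, the melanocyte transcription factor, by 0.83, adjusted p = 0.0214). Another 1 rose (Tyrp1, a melanin enzyme, by 0.51, adjusted p = 0.0123), beside 24.9% of all genes called in either direction. In bulk tumour RNA, fewer cells of a type and less RNA per cell cannot be told apart.

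In ALA plus X-ray against control tumours, 6 genes fell (E2f7, E2f8, E2f1, E2f2, Rbl1 and E2f3), none rose and 4 did not pass the test; 15.1% of all tested genes were called lower in this comparison and 24.9% in either direction. In X-ray against control, 1 gene fell (E2f6), where 1.38% of all genes were called lower and 3.37% in either direction. In ALA plus X-ray against ALA, 4 genes fell (E2f7, E2f1, Rbl1 and E2f3), where 13.4% of all genes were called lower and 24.1% in either direction. ALA against control gave 0 of the 10 genes in limma, where 0% of all genes were called. At an unadjusted p under 0.05 it gave 0, beside 961 of all 15399 genes. Adding ALA to X-ray also gave 0 of 10 against X-ray alone, where 2.07% of all genes were called. At an unadjusted p under 0.05 it gave 3, beside 3566 of all 15399 genes. The comparisons with control share the same 4 control arrays, and the comparisons with ALA plus X-ray share those 4 arrays. Against control, the median log2 fold change of the 10 genes was -0.08 after ALA, -0.32 after X-ray and -0.55 after the combined treatment, beside 0, -0.02 and -0.08 over all genes tested.

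**Figure D1:**
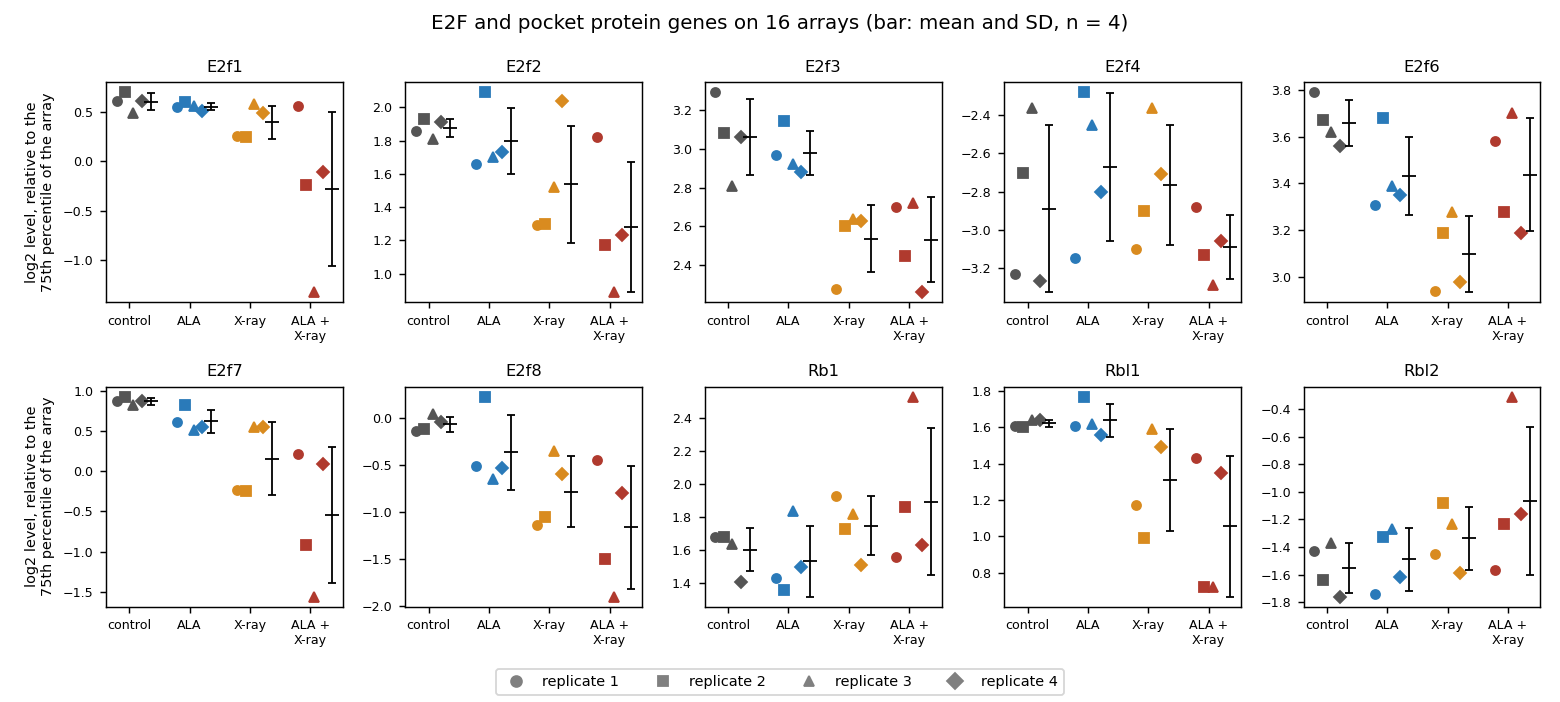
Level of each E2F and pocket protein gene on every array, as log2 relative to the 75th percentile of the array (y axis, a different range in each panel), for 4 arrays in each of the 4 groups; marker shape gives the replicate number and the bar the mean and SD. Control arrays are tightly grouped for E2f7 and Rbl1. ALA plus X-ray arrays have the largest SD for every gene except E2f4, where theirs is the smallest (0.17, against 0.44 in control). For E2f3 their SD is close to control (0.22 and 0.2). Of all arrays, replicate 3 of ALA plus X-ray is lowest for E2f1, E2f2, E2f4, E2f7 and E2f8 and highest for Rb1 and Rbl2. For Rbl1 it shares the lowest level, 0.72, with replicate 2.

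Among the activators, E2f1, the family member best known for driving entry into S phase, was lower in 3 of the 4 combined-treatment tumours. Its control levels were 0.61, 0.70, 0.49 and 0.61 and its ALA levels 0.55, 0.60, 0.56 and 0.51. Its X-ray levels were 0.26, 0.25, 0.58 and 0.49, and its ALA plus X-ray levels were 0.56, -0.24, -1.33 and -0.11. Replicate 1 of the combined treatment lay inside the control range and the other 3 lay below every other array of the study. E2f1 fell by 0.88 on the log2 scale (SE 0.27, 1.84-fold, adjusted p = 0.0311) in ALA plus X-ray against control and by 0.83 (adjusted p = 0.0389) against ALA. The fold change in X-ray against control was -0.20 (adjusted p = 0.705). Within slides the ALA plus X-ray minus control difference was -0.05, -0.94, -1.82 and -0.72, below 0 on all 4 but close to 0 on slide 1. Without replicate 3 of the combined treatment the fold change against control was -0.53 and was still called; without control replicates 1, 2 or 4 or ALA plus X-ray replicate 2 it was not, with adjusted p-values up to 0.0759. The call against ALA was lost in 7 of 16 fits that left out 1 array (any ALA array, or ALA plus X-ray replicate 2, 3 or 4), with adjusted p-values up to 0.0742, and without replicate 3 of the combined treatment the fold change against ALA was -0.48 (adjusted p = 0.0626).

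A second E2f1 probe is printed 10 times on each array and gave the same order of arrays within the combined treatment except at replicates 2 and 4. Its spots had a median SD of 0.06 within an array, over the 16 arrays. It read -0.02, 0.07, -0.14 and 0.08 in control, -0.64, -0.61, -0.24 and -0.50 in X-ray and -0.29, -1.04, -2.92 and -1.18 in ALA plus X-ray tumours. On this probe all X-ray and all ALA plus X-ray arrays lay below all control arrays. The fold change was -1.36 (SE 0.37, adjusted p = 0.0206 over 21632 probes) in ALA plus X-ray against control and -0.50 (adjusted p = 0.48) in X-ray against control.

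E2f2, the second activator, stood in a narrow band in control tumours, at 1.86, 1.93, 1.81 and 1.91. It read 1.66, 2.09, 1.70 and 1.73 in ALA, 1.29, 1.30, 1.52 and 2.04 in X-ray and 1.82, 1.17, 0.89 and 1.23 in ALA plus X-ray tumours. In the combined treatment 3 of 4 arrays lay below all controls and replicate 1 lay inside the control range. E2f2 fell by 0.60 (SE 0.20, adjusted p = 0.0393) against control; with the slide as a replicate block the adjusted p was 0.0506 and the call was lost. Against ALA the fold change was -0.52 (adjusted p = 0.0673) and against X-ray -0.27 (adjusted p = 0.434). Leaving out any 1 control array, ALA replicate 4 or ALA plus X-ray replicate 2, 3 or 4 ended the call against control, with adjusted p-values up to 0.117.

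E2f3, the third activator, was lower in both irradiated groups on its used probe. It read 3.29, 3.08, 2.81 and 3.06 in control and 2.97, 3.14, 2.92 and 2.88 in ALA tumours. It read 2.28, 2.60, 2.64 and 2.63 in X-ray and 2.70, 2.45, 2.72 and 2.26 in ALA plus X-ray tumours. Every irradiated array lay below every control and every ALA array. E2f3 fell by 0.53 (SE 0.14, adjusted p = 0.0161) in ALA plus X-ray against control and by 0.45 (adjusted p = 0.0317) against ALA. In X-ray against control the fold change was -0.52, but the adjusted p of 0.0523 did not pass, and it was 0.0414 after quantile normalisation between arrays and 0.0434 in the authors' table. The difference between the irradiated groups was -0.01 (95% interval -0.30 to 0.29). Without control replicate 1 the call against control did not hold (adjusted p = 0.052), and the call against ALA was lost in 6 of 16 such fits (any ALA array, or ALA plus X-ray replicate 2 or 4, adjusted p-values up to 0.0895).

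The other E2f3 probes that passed the filter differed from each other in this pattern. Both are 60 bases long and mapped across a gap, at chr13:30005369-30008755 and chr13:30001985-30003071 on the minus strand in mm9, a stretch of 3387 and of 1087 bases, whereas the used probe maps without a gap at chr13:29998480-29998539 in the same build, farther along the transcript. Their sequences, as the array files give them, are shown because the measured fold change of E2f3 depends on which of them is read.
E2f3 probe across 3387 bases: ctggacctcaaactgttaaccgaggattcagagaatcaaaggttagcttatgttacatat
E2f3 probe across 1087 bases: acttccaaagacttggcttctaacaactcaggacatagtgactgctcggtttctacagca
The probe across 1087 bases read -1.51, -1.66, -1.64 and -1.38 in control, -1.19, -1.40, -1.07 and -1.17 in ALA, -1.35, -1.19, -1.33 and -1.52 in X-ray and -1.41, -1.80, -2.48 and -1.92 in ALA plus X-ray tumours. On it the X-ray arrays overlapped the controls, and 3 of 4 ALA plus X-ray arrays were lower than all others. Its fold change against control was 0.20 (adjusted p = 0.556) after X-ray and -0.35 (adjusted p = 0.157) after ALA plus X-ray, and it fell by 0.69 (adjusted p = 0.0165) in ALA plus X-ray against ALA. The probe across 3387 bases was above background on 13 of 16 arrays and had a fold change of -0.94 (SE 0.37, adjusted p = 0.0743) in ALA plus X-ray against control. In X-ray against control it was -0.33 (adjusted p = 0.646). Its mean was thus lower in both irradiated groups, with overlapping arrays and without passing the test. The last E2f3 probe was above background on 0 arrays. The interaction of ALA and X-ray was 0.08 (adjusted p = 0.857) on the used probe and -0.89 (adjusted p = 0.0969) on the probe across 1087 bases.

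**Figure D2:**
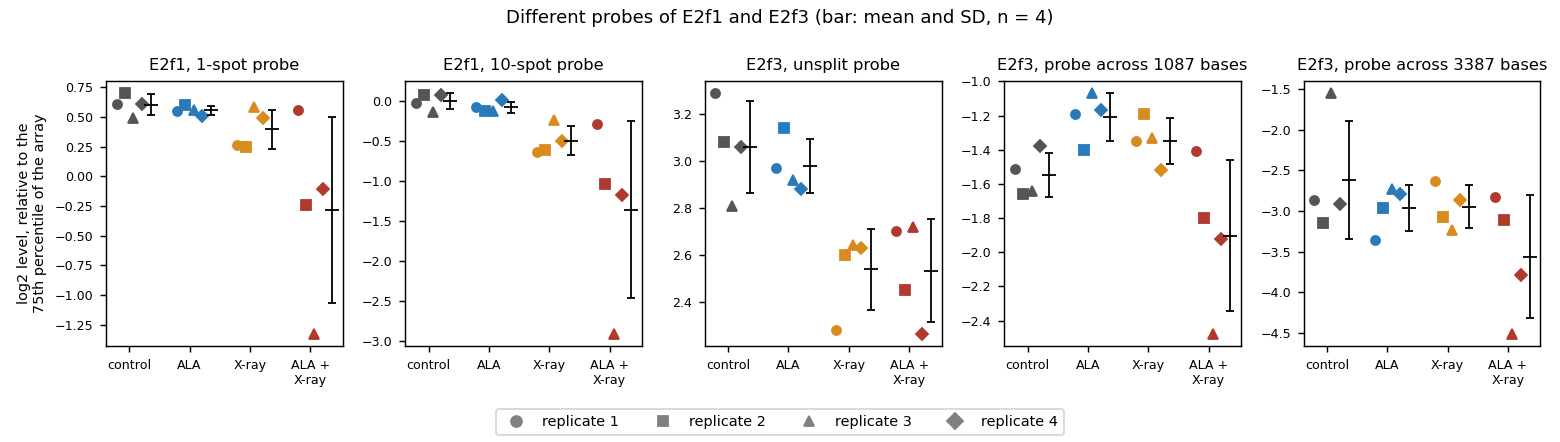
Levels of the 2 E2f1 probes and of the 3 E2f3 probes that passed the filter, as log2 relative to the 75th percentile of the array (y axis, a different range in each panel), for 4 arrays in each group with the mean and SD. Both E2f1 probes place ALA plus X-ray replicate 3 lowest, at -1.33 and -2.92. All X-ray arrays lie below all controls on the unsplit E2f3 probe, but on neither of the other E2f3 probes.

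Among the repressors, E2f6, a factor that acts with polycomb proteins and lacks the pocket-binding region, was the 1 gene called in X-ray against control. It read 3.79, 3.67, 3.62 and 3.56 in control and 2.94, 3.19, 3.28 and 2.98 in X-ray tumours. It read 3.31, 3.68, 3.39 and 3.35 in ALA and 3.58, 3.28, 3.70 and 3.19 in ALA plus X-ray tumours. All 4 X-ray arrays lay below all 4 controls, while the ALA plus X-ray arrays overlapped controls. E2f6 fell by 0.56 (SE 0.13, 1.48-fold, adjusted p = 0.0383) in X-ray, and the fold change in ALA plus X-ray against control was -0.22 (adjusted p = 0.232). The interaction of ALA and X-ray was 0.57 (SE 0.19, adjusted p = 0.14) and above 0 on 4 of 4 slides. Between the irradiated groups the difference was 0.34 (ALA plus X-ray minus X-ray, adjusted p = 0.16) and did not pass. The E2f6 call was lost without any 1 control array, without ALA replicate 1 or 4 and without X-ray replicate 1, 2 or 4, with adjusted p-values up to 0.11. A second E2f6 probe, above background on all 16 arrays, had a fold change of -0.17 (SE 0.27, adjusted p = 0.762) in X-ray against control.

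E2f4, the most abundant repressor in many tissues, was above background on all 16 arrays and its groups overlapped in every comparison. It read -3.23, -2.70, -2.36 and -3.27 in control, -3.15, -2.28, -2.45 and -2.80 in ALA, -3.10, -2.90, -2.36 and -2.71 in X-ray and -2.88, -3.13, -3.29 and -3.06 in ALA plus X-ray tumours. The fold change in ALA plus X-ray was -0.20 against control (95% interval -0.70 to 0.30, adjusted p = 0.552) and -0.42 against ALA (adjusted p = 0.191). With normexp background correction in place of the processed signal these were -0.48 (adjusted p = 0.0104) and -0.53 (adjusted p = 0.00696), so the call on E2f4 depends on the background correction. Calls on E2f1, E2f2, E2f3, E2f6, E2f8 and Rbl1 also changed with normexp, as given in the section on processing.

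The atypical factors had the largest fold changes of the 10 genes in ALA plus X-ray against control. E2f7 read 0.87, 0.93, 0.82 and 0.87 in control and 0.61, 0.83, 0.51 and 0.55 in ALA tumours. It read -0.23, -0.24, 0.55 and 0.55 in X-ray and 0.22, -0.92, -1.56 and 0.09 in ALA plus X-ray tumours. The control arrays lay between 0.82 and 0.93, and every irradiated array lay below all of them. The mean was 0.87 ± 0.05 (SD, n = 4) in control, 0.62 ± 0.14 in ALA, 0.16 ± 0.45 in X-ray tumours and -0.54 ± 0.85 with the combined treatment, so the SD was larger in each irradiated group than in control or ALA. E2f7 fell by 1.41 (SE 0.32, 2.66-fold, 95% interval -2.10 to -0.72, adjusted p = 0.00992) in ALA plus X-ray against control and by 1.16 (2.24-fold, adjusted p = 0.0209) against ALA. The fold change was -0.71 in X-ray against control (adjusted p = 0.215) and -0.70 for the combined treatment relative to X-ray (adjusted p = 0.21). The call against control held in all 16 fits that left out 1 array, with fold changes of -1.66 to -1.07 and adjusted p-values up to 0.033, and in 10 other settings. The call against ALA was lost without ALA plus X-ray replicate 2 (adjusted p = 0.0593) or 3 (adjusted p = 0.0529). A second E2f7 probe was above background on 1 array only and was not tested.

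E2f8, which works alongside E2f7, read -0.14, -0.12, 0.04 and -0.04 in control and -0.51, 0.23, -0.65 and -0.53 in ALA tumours. It read -1.14, -1.05, -0.35 and -0.59 in X-ray and -0.45, -1.50, -1.90 and -0.80 in ALA plus X-ray tumours. Every irradiated array lay below all controls, and ALA replicate 2 lay above all controls while the other 3 ALA arrays lay below them. E2f8 fell by 1.10 (SE 0.29, 2.14-fold, adjusted p = 0.0166) in ALA plus X-ray against control. The fold change was -0.72 in X-ray against control (adjusted p = 0.162) and -0.80 in ALA plus X-ray against ALA (adjusted p = 0.0575). Without ALA plus X-ray replicate 2 or 3 the adjusted p against control was 0.0516 or 0.0505.

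Of the pocket proteins, Rbl1, whose gene is itself an E2F target, was the 1 that fell. It read 1.61, 1.60, 1.64 and 1.64 in control, 1.61, 1.77, 1.62 and 1.56 in ALA, 1.17, 0.99, 1.59 and 1.49 in X-ray and 1.43, 0.72, 0.72 and 1.35 in ALA plus X-ray tumours. Every irradiated array lay below all controls, with X-ray replicate 3 the nearest to them and ALA plus X-ray replicates 2 and 3 the farthest. Rbl1 fell by 0.57 (SE 0.17, 1.48-fold, adjusted p = 0.0303) in ALA plus X-ray against control and by 0.58 (adjusted p = 0.0274) against ALA. The fold change in X-ray against control was -0.31 (adjusted p = 0.315). The call against control was lost in 6 of 16 fits that left out 1 array (any control array, or ALA plus X-ray replicate 2 or 3), with adjusted p-values up to 0.0906, and the call against ALA in 6 as well (any ALA array, or the same replicates of the combined treatment, up to 0.0815).

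Rb1, the retinoblastoma gene, read 1.68, 1.68, 1.64 and 1.41 in control and 1.43, 1.36, 1.84 and 1.5 in ALA tumours. It read 1.93, 1.73, 1.82 and 1.51 in X-ray and 1.56, 1.86, 2.53 and 1.63 in ALA plus X-ray tumours. The groups overlapped, and replicate 3 of the combined treatment stood above all other arrays. The fold change in ALA plus X-ray against control was 0.29 (95% interval -0.11 to 0.70, adjusted p = 0.267). The probe is printed 10 times, with a median SD of 0.05 between its spots. A second Rb1 probe was above background on 0 arrays.

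Rbl2, whose product p130 is most abundant in resting cells, read -1.43, -1.64, -1.37 and -1.76 in control, -1.74, -1.33, -1.27 and -1.62 in ALA, -1.45, -1.08, -1.23 and -1.59 in X-ray and -1.57, -1.23, -0.31 and -1.16 in ALA plus X-ray tumours. Replicates 2, 3 and 4 of the combined treatment were above all controls and replicate 1 was inside the control range. The fold change against control was 0.48 (95% interval 0.00 to 0.96, adjusted p = 0.123). Without replicate 1 of the combined treatment it was 0.65 (adjusted p = 0.0302) and was called, but that array stood out in these same values. A second Rbl2 probe, above background on 8 of 16 arrays, had a fold change of 1.11 (adjusted p = 0.0502) against control and 1.02 (adjusted p = 0.151) in X-ray against control.

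**Figure D3:**
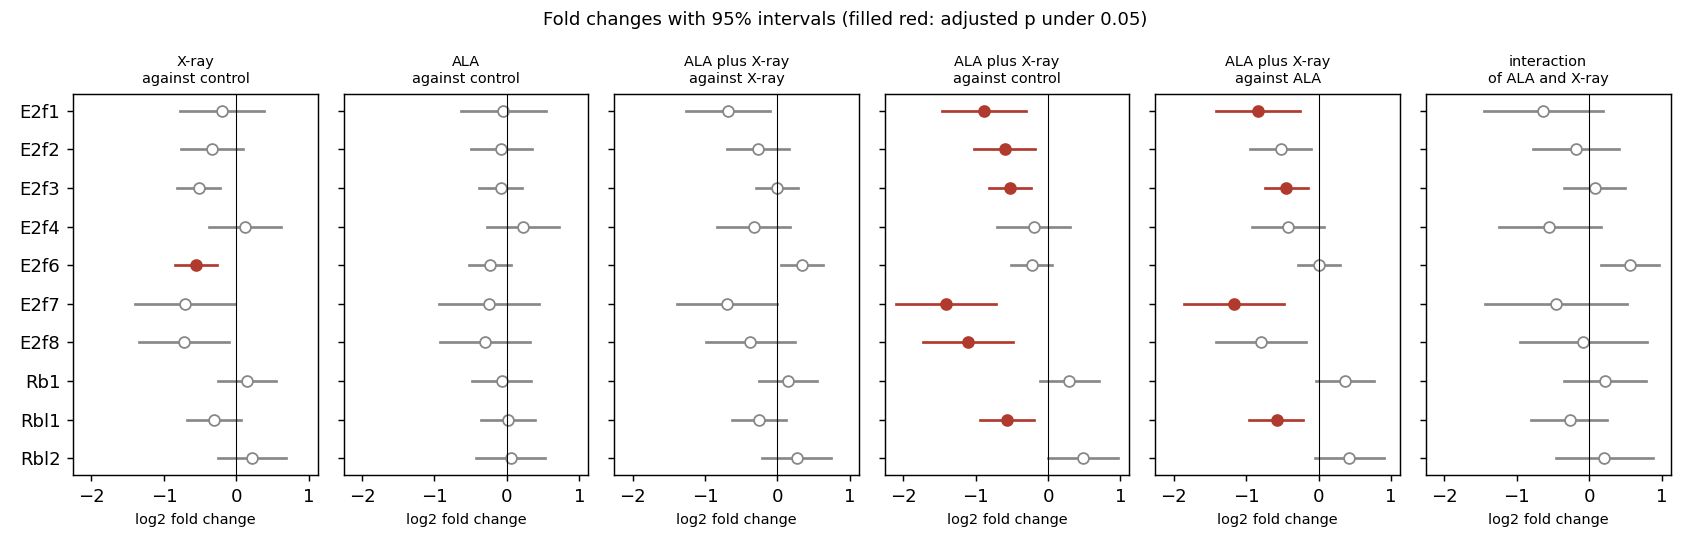
Log2 fold change (x axis) of each of the 10 genes (y axis) in 6 comparisons, with 95% intervals from limma; filled red points had an adjusted p under 0.05. E2f7 is farthest from 0, at -1.41 for ALA plus X-ray against control, and Rb1 and Rbl2 lie above 0 there, at 0.29 and 0.48, without passing the test.

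Counted by overlap, 5 of the 10 genes had all X-ray arrays below all control arrays (E2f3, E2f6, E2f7, E2f8 and Rbl1), beside 10.5% of all genes tested. In ALA plus X-ray against control the 4 genes were E2f3, E2f7, E2f8 and Rbl1, beside 11.6% of all genes, and against ALA they were E2f3, E2f7 and Rbl1, beside 11.5%. No gene of the 10 was separated downwards by ALA alone, beside 2.51% of all genes, or by ALA plus X-ray relative to X-ray, beside 3.68%.

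The irradiated arrays did not sit at 1 level. The median deviation of the 10 genes from the control mean was -0.52, -0.46, -0.16 and -0.12 on the X-ray arrays and -0.07, -0.66, -0.65 and -0.56 on the ALA plus X-ray arrays. Replicates 1 and 2 of X-ray and replicates 2, 3 and 4 of ALA plus X-ray were low, and replicate 1 of ALA plus X-ray was close to control. Without that array, E2f1 (-0.96, adjusted p = 0.0138) and E2f7 (-0.95, adjusted p = 0.0463) were called lower in ALA plus X-ray than in X-ray alone; that array stood out in these same values, and leaving out any other single array gave 0 calls. The interaction of ALA and X-ray was called for 0 of the 10 genes with or without that array, beside 1.23% of all genes. With all arrays, 1 gene (E2f6) was at an unadjusted p under 0.05, beside 2939 of all 15399 genes. The E2f1 interaction was -0.63 (SE 0.38, adjusted p = 0.378) and the E2f7 interaction -0.45 (SE 0.46, adjusted p = 0.607).

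Markers of cells other than melanoma cells also differed between the groups. In ALA plus X-ray, 24.9% of all genes were called in either direction against control, 24.1% against ALA and 2.07% against X-ray. Of 11 macrophage markers, 3 rose in ALA plus X-ray against control, 10 against ALA and 6 against X-ray (2 with the slide as a block). Their summed level, relative to the 75th percentile, ranged from 148 to 280 with the combined treatment, while control tumours had 61.7 to 111, X-ray tumours 19.3 to 105 and ALA tumours 12.5 to 39.1. Of 8 fibroblast markers, 7 rose in ALA plus X-ray against ALA (5 with the block) and 0 against control, with summed levels of 27.5 to 106, 15.9 to 98.9, 29.3 to 69.2 and 59.7 to 421 in control, ALA, X-ray and combined tumours. In the same order, the 7 skeletal muscle markers summed to 0.874 to 158, 0.733 to 3.19, 0.586 to 15 and 0.95 to 399. The highest value was on ALA plus X-ray replicate 3, the array lowest for E2f1, E2f2, E2f4, E2f7 and E2f8. On ALA plus X-ray replicate 1, where the 10 genes were close to control, macrophage markers summed to 148, fibroblast markers to 59.7 and muscle markers to 0.95, each the lowest of the 4. That macrophage sum still lay above every control array. The T and NK cell (0.437), erythroid (23.4) and keratinocyte (0.251) sums were also the lowest of the 4 there. The endothelial sum (8.8) was not, and the melanoma sum (1300) was the highest of the 4. In control, ALA, X-ray and combined tumours, the 4 erythroid markers summed to 60.1 to 173, 280 to 698, 26.1 to 819 and 23.4 to 54.7. Of the 4, 3 fell in ALA plus X-ray against ALA, also with the block, and 0 against control. Of 5 endothelial markers tested, 1 fell after X-ray, Kdr (-1.22, adjusted p = 0.0265), and 0 were called in ALA plus X-ray against control. No tested keratinocyte marker was called in any comparison, and their summed level was highest, at 10.5, on ALA plus X-ray replicate 4. Of the 6 T and NK cell markers, 4 were not above background on any control array and 2 of 4 tested rose in ALA plus X-ray against control (1 with the block). The part of these cells in the differences above was not tested.

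**Figure D4:**
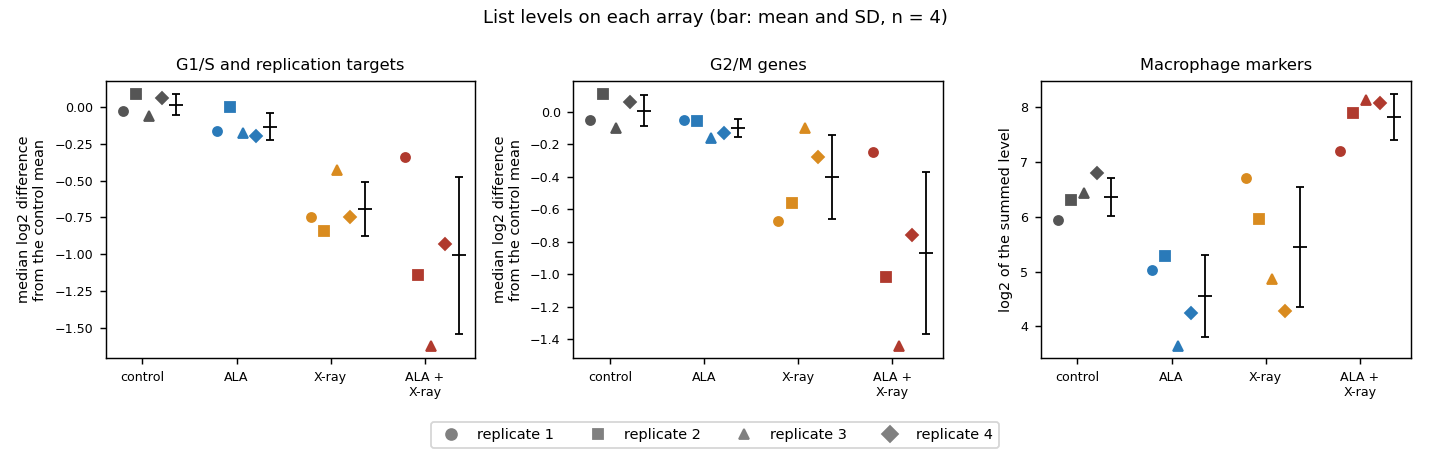
Median log2 difference from the control mean for the G1/S and replication targets and the G2/M genes, and the log2 summed level of the macrophage markers (y axes), on 4 arrays in each group with the mean and SD. ALA plus X-ray replicate 1 is the least changed array of its group, at -0.34 for the G1/S targets and -0.25 for the G2/M genes, and replicate 3 the most, at -1.62 and -1.44.

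One list holds genes that E2F factors are known to regulate. Of 31 genes of G1/S and replication, 29 fell in ALA plus X-ray against control and 26 against ALA, with medians of -0.99 and -0.91. Of all genes, 15.1% and 13.4% were called lower in these comparisons, and 1.38% in X-ray against control. After X-ray alone 11 of the 31 fell (8 with the slide as a block) and all 31 fold changes were below 0, with a median of -0.71. Among them Ung, the uracil-DNA glycosylase, fell by 0.73 (adjusted p = 0.0244) after X-ray and by 0.91 (adjusted p = 0.00253) after ALA plus X-ray. Pcna, the sliding clamp of DNA polymerases, fell by 0.70 (adjusted p = 0.0294) and by 0.89 (adjusted p = 0.00312), and Chek1, a checkpoint kinase, fell by 1.05 (adjusted p = 0.0306) in X-ray. ALA alone gave 0 of 31 in limma, with 0 at an unadjusted p under 0.05, beside 961 of all 15399 genes. The combined treatment relative to X-ray gave 0, with 3 unadjusted, beside 3566 of all genes.

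Of 22 G2/M genes tested, 20 fell in ALA plus X-ray against control (16 with the slide as a block) and 16 against ALA (15 with the block), with medians of -0.88 and -0.77. Of all genes, 15.1% and 13.4% were called lower in these comparisons, and 1.38% in X-ray against control. After X-ray alone 1 fell, Aurkb, an Aurora kinase of mitosis (-0.77, adjusted p = 0.0365, and 0.0601 with the slide as a block), and the median was -0.39. The combined treatment relative to X-ray gave 0 in limma, with 8 at an unadjusted p under 0.05, beside 3566 of all 15399 genes. All 22 fold changes were below 0 there, with a median of -0.48, beside -0.08 over all genes. In ALA plus X-ray, Cdk1, the mitotic kinase, fell by 1.25 (adjusted p = 0.00552) against control and Ttk, a spindle checkpoint kinase, fell by 1.19 (adjusted p = 0.0067) against ALA.

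The next list holds partners of E2F and subunits of MuvB, a complex that binds p130 or p107 with E2F4 in resting cells and B-Myb in cycling cells. Of its 10 genes, 3 fell in ALA plus X-ray against control, beside 15.1% of all genes called lower. With the slide as a block 4 fell, as Mybl1 (-0.89, adjusted p = 0.0985 in the main fit) then had an adjusted p of 0.0392. Foxm1, a forkhead activator of G2/M genes, fell by 1.46 (SE 0.30, adjusted p = 0.00647), Mybl2 (B-Myb) by 1.17 (adjusted p = 0.0131) and the DP subunit Tfdp1 by 0.59 (adjusted p = 0.0135). Tfdp2 had a fold change of -0.46 (adjusted p = 0.114). Against ALA 4 of 10 fell, and 4 with the block, beside 13.4% of all genes called lower. In the main fit these were Foxm1 (-1.19, adjusted p = 0.0141), Mybl2 (-0.96, adjusted p = 0.0294), the histone-binding subunit Rbbp4 (-0.40, adjusted p = 0.0352) and Tfdp1 (-0.46, adjusted p = 0.0363, and 0.0543 with the slide as a block). After X-ray alone limma called 0, with 2 at an unadjusted p under 0.05, beside 3375 of all 15399 genes. Tfdp1 was at -0.54 (adjusted p = 0.0584).

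Upstream of the pocket proteins, the 15 tested cyclins, kinases and inhibitors of G1 moved in both directions. Cdkn1a, the inhibitor p21 induced by p53, rose relative to control by 1.52 (SE 0.21, adjusted p = 0.0143) after X-ray and by 1.45 (adjusted p = 0.00193) after ALA plus X-ray, without overlap of the groups in either. With the slide as a block Ccnd3 was also called higher after X-ray (0.5, adjusted p = 0.0354, and 0.0852 without the block). In ALA plus X-ray against control 4 rose (5 with the slide as a block) and 4 fell, beside 24.9% of all genes called in either direction. Ccnd1 (cyclin D1) rose by 0.93 (adjusted p = 0.0253), and its kinase partner Cdk4 fell by 0.93 (adjusted p = 0.0284). Ccna2 (cyclin A2, -1.11, adjusted p = 0.0128), Cdc25a (-0.83, adjusted p = 0.0198) and the inhibitor Cdkn2c (-0.58, adjusted p = 0.0165) also fell. Ccne1 (cyclin E1) was at -0.36 (adjusted p = 0.104) and Cdk2 at -0.30 (adjusted p = 0.277). Cdkn1b, the inhibitor p27, was the 1 gene of the list called between the irradiated groups (-0.72, adjusted p = 0.0431) and in the interaction (-1.05, adjusted p = 0.0459); with the slide as a block the adjusted p-values were 0.057 and 0.0735.

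**Figure D5:**
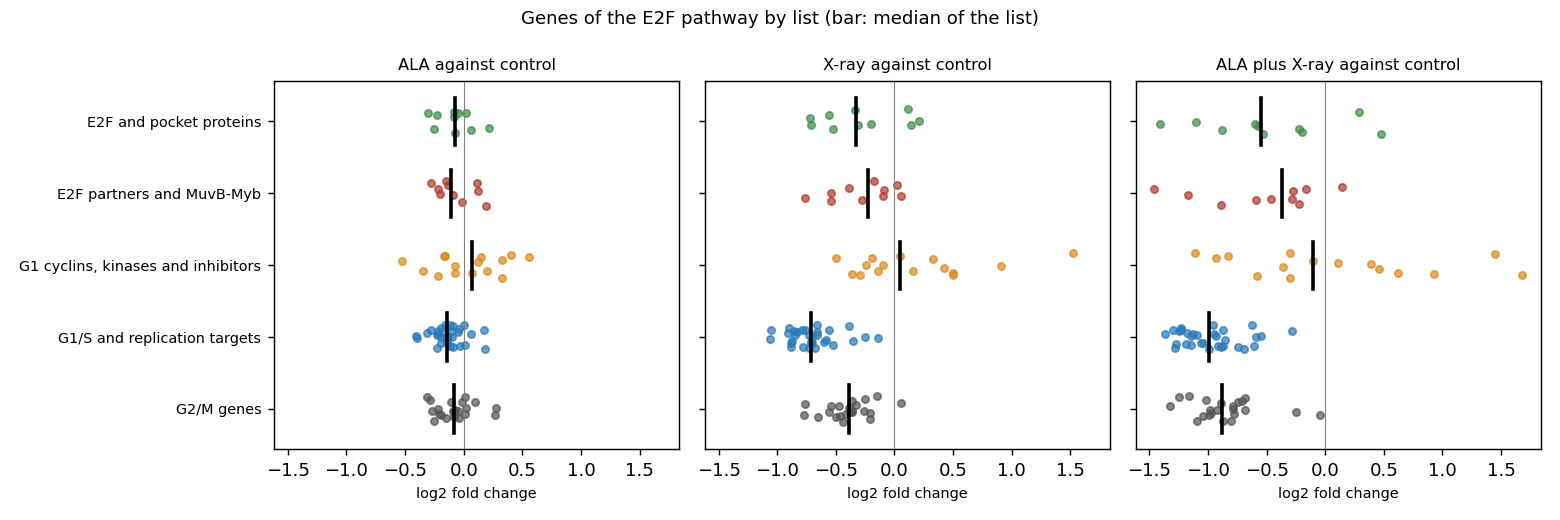
Log2 fold change (x axis) of every tested gene of 5 lists of the E2F pathway (rows) in ALA, X-ray and ALA plus X-ray against control, with a bar at each list's median. The G1/S and replication targets lie at a median of -0.14 after ALA, -0.71 after X-ray and -0.99 after the combined treatment, while the G1 cyclins, kinases and inhibitors spread on both sides of 0.

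Over all 16 arrays E2f7 (SD 0.71), E2f8 (SD 0.58) and E2f1 (SD 0.51) varied most among the 10 genes, and E2f6 least (SD 0.26). The genes whose centred log2 levels lay closest to E2f7 over the 16 arrays were Ccna2, St6galnac3 and Mcm7, with root mean square differences of 0.158, 0.164 and 0.171. Closest to E2f8 were Mms22l (0.143), Atad5 (0.145) and Ncapg2 (0.165), and among the closest to E2f1 were Nckap5l (0.094) and Cdk4 (0.103). The arrays share groups and slides, so these likenesses describe this series only.

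Of the 10 genes, 8 have a promoter entry in the RefSeq table used here (GRCm38.p6), with 10 annotated starts in all; E2f4 and Rb1 have none. The 250 bases before each start were searched on both strands for an E2F motif, written as TTTCCCGC, TTTCGCGC, TTTGCCGC or TTTGGCGC, and for the CHR motif of MuvB-regulated genes, TTTGAA, which does not overlap them. At least 1 E2F motif lay in 1.86% of all 32851 windows and a CHR motif in 16.0%. Among the 8 genes, E2f3, E2f7 and Rbl1 held an E2F motif, and E2f2 (at its second start), E2f3, E2f8 and Rbl2 held a CHR motif. The 4 windows below belong to the genes whose combined-treatment arrays all lay below the controls; capitals mark the motifs.
E2f7: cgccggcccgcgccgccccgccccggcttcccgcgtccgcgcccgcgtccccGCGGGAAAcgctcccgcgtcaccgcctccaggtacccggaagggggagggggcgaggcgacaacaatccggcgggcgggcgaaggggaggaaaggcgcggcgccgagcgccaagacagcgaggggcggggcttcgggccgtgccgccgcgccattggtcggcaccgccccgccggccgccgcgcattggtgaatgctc
E2f8: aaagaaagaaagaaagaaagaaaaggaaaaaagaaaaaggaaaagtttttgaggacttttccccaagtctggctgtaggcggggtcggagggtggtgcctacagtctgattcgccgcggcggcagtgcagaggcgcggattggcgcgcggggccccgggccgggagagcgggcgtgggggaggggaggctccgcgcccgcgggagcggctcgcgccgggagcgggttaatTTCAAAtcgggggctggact
E2f3: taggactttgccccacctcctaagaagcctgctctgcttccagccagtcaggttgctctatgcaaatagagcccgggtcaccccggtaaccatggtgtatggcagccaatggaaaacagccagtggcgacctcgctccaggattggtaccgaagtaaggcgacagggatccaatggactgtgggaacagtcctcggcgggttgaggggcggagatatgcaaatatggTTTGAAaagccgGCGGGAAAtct
Rbl1: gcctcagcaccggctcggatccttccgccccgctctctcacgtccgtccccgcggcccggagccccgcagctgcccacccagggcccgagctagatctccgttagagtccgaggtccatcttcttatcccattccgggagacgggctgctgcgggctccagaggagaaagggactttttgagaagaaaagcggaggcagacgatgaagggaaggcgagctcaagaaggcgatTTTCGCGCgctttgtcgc
The E2f7 window lies at chr10:110745189-110745438 on the plus strand and its motif begins 198 bases before the start. The E2f8 window lies at chr7:48881597-48881846 on the minus strand, with the CHR letters 20 bases before the start. The E2f3 window, of the first of 2 annotated starts, lies at chr13:29986064-29986313 on the minus strand, with the CHR letters 23 and the E2F letters 11 bases before the start. The Rbl1 window lies at chr2:157204535-157204784 on the minus strand, with the E2F letters 18 bases before the start. The listed E2f1 start appears to lie within the first exon of the gene, so its window does not cover the sequence before that exon. Starts outside the table were not searched. Positions of the probes are given on mm9 and those of promoters on GRCm38.p6, and a match describes letters only.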

How the data were processed

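Per the labels' protocols, total RNA from tumours kept in RNAlater was labelled with Cy3 and hybridised to 1-colour Agilent mouse arrays, 1 per tumour. Per the file headers, the deposited scanner files hold linear intensity values, among them a processed signal from which Feature Extraction 10.7.3.1 (9.5.3.1 per the submitters' processing notes) had removed background and spatial trend, with mean signal, local background and quality flags, which are other values. The deposited value table of the authors holds intensity normalised between arrays (each column's median 31.881); on a log2 scale its correlation with the processed signal was 0.9925 to 1, and it served as an alternative.

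The log2 processed signal of 43379 non-control spots was scaled by the array's 75th percentile; spots marked as outliers were left out and the rest averaged per probe (41135 probes; 39 with no usable spot on an array were dropped). Names were taken from the files' accessions and symbols through RefSeq. Probes that exceeded background clearly (by the scanner's flag) on 4 or more of 16 arrays were kept, and the probe of highest mean stood for its gene. limma 3.58.1 in R 4.3.3 was fitted to the 4 group means (12 residual degrees of freedom), tested first on simulated data, with Benjamini-Hochberg adjustment within each comparison at 0.05. The 10 genes, the pathway lists and the markers were chosen with earlier results of these data known. Within each list the text names the 4 genes of smallest p per comparison and 8 fixed genes, or some of these. A gene among those with levels most like E2f1 is not reported here.

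Replicate numbers coincide with the slide per the file headers, while the labels do not say that they mark one. The deviations of same-numbered arrays correlated at -0.461 to 0.54, and 11 of 16 arrays correlated best with their own number, so arrays of a slide were partly alike. The block was not part of the main fit and is given beside a result where it changes a call or a count of calls. Alternatives were background correction, normalisation, filters, probes, arrays fitted, array weights, slide block and arrays left out; leaving out slide 1 was chosen after seeing the data.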

Additional observations from a re-analysis of the deposited data

Results flagged for a closer look

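In 4 of 40 checks of 10 genes in 4 groups, 1 array stood apart from the other 3 of its group by more than Dixon's critical value; chance gives about 1 in 20. E2f2 was 2.09 on ALA replicate 2, where the other ALA arrays read 1.66 to 1.73. E2f8 was 0.23 on the same array, where the others read -0.65 to -0.51. E2f3 was 2.28 on X-ray replicate 1, where the others read 2.6 to 2.64. Rb1 was 1.41 on control replicate 4, where the others read 1.64 to 1.68.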

How the results depend on the processing

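Of the 10 genes, 1 was called after X-ray, 6 after ALA plus X-ray and 0 after ALA, each against control, 4 for ALA plus X-ray against ALA, and 0 both against X-ray and in the interaction. In X-ray against control the count was 0 with normexp background, median scaling, no filter or without slide 1, 2 with quantile normalisation, the authors' table or a filter on all 16 arrays, and 5 with array weights. In ALA plus X-ray against control it was 2 with median scaling, 3 with no filter and 1 (E2f7) with only the arrays compared; against ALA it was 1, 1 and 0. With normexp it was 4 against control, as E2f1 (adjusted p = 0.0549), E2f3 (0.0638) and Rbl1 (0.0721) were lost and E2f4 (0.0104) was gained. With normexp it was 6 against ALA, as E2f1 (adjusted p = 0.0629) was lost and E2f2 (0.0456), E2f4 (0.00696) and E2f8 (0.0242) were gained. Against X-ray it was 1 with array weights or without slide 1. Leaving out 1 array gave 0 to 2 calls after X-ray, 2 to 7 after ALA plus X-ray and 0 to 0 after ALA, 0 to 7 for ALA plus X-ray against ALA, 0 to 2 against X-ray and 0 to 0 in the interaction. No fold change of a called gene changed sign. Of 1610 single results under another setting, 82 lost a call and 29 gained one. With the replicate block 5 of the 6 calls of ALA plus X-ray against control were kept, E2f2 being lost at an adjusted p of 0.0506, and it changed no other call on the 10 genes. With median scaling the median over all genes was -0.14 in ALA plus X-ray and -0.12 in ALA against control, and changed the split of all genes called (higher and lower) from 307 and 212 to 27 and 1 in X-ray against control, from 1649 and 2064 to 1360 and 536 in ALA plus X-ray against ALA, from 200 and 118 to 206 and 37 against X-ray, and from 138 and 51 to 241 and 32 in the interaction. All genes called in ALA plus X-ray against control numbered 3828, and 2135 with median scaling, 1603 with only the arrays compared and 6442 with array weights; against ALA these were 3713, 1896, 1589 and 6438. In X-ray against control they were 519, 28 with median scaling, 3 with no filter, 713 with only the arrays compared, 2963 with array weights and 4 without slide 1. Against X-ray they were 318, 521 with normexp, 11 with no filter, 1 with only the arrays compared, 2165 with array weights and 2982 without slide 1. In the interaction they were 189, 40 with no filter, 8 with the replicate block, 2023 with array weights and 1339 without slide 1, and in ALA against control 0, 2 with only the arrays compared and 40 with array weights. Leaving out 1 array, all genes called ranged from 1 to 1087 in X-ray against control, 3 to 3135 for ALA plus X-ray against X-ray, 1 to 1065 in the interaction, 1954 to 5953 for ALA plus X-ray against control, 2165 to 5817 against ALA and 0 to 1 for ALA against control; the shares of all genes called rest on these counts. The cause of these shifts was not tested. Fitting only the arrays compared leaves fewer samples and takes the spread from those arrays alone, and no filter adds dim genes. Probes of E2f3, E2f7 and Rb1 below background limit what can be read there.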
